A study of Mus musculus with 36 samples.

Results

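The vomeronasal organ (VNO) of female mice that had been housed only with females was compared with that of male mice housed only with males. The libraries were chosen by tissue, sex and housing as the labels give them, which are the sex-separated females (SF, 3 libraries) and the sex-separated males (SM, 3 libraries), 6 of the 36 libraries of the series. All mice were C57BL/6, were weaned at 3 weeks, were kept at 4 animals per cage and were 6 months old when the tissue was taken. The sex-combined females (CF) and males (CM), with 3 VNO libraries each, had the same strain, age and density but shared cages with the other sex, and they serve here as a further female-male comparison with no library in common with SF and SM. The methods of the study add that after weaning the SF and SM cages stood in different rooms, each with mice of a single sex, so that sex and room cannot be told apart between SF and SM. They also say that litters were born in the sex-combined cages and removed soon after birth, so that CF and SF differ in breeding as well as in cage mates. Each library was made from RNA pooled from several mice (2 per pool in the labels, while the methods of the study give another number), so that the spread between libraries is a spread between pools. The study asked which genes differ between the sexes in olfactory tissues and whether living with or apart from the other sex changes them.

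The VNO is a tubular organ at the base of the nasal septum that detects pheromones and other social cues, many of which differ between the sexes. Its sensory neurons form an apical layer with type 1 receptors (V1R) and the G protein subunit Gnai2, and a basal layer with type 2 receptors (V2R) and Gnao1, and both layers signal through the channel Trpc2. The dissected organ also holds supporting (sustentacular) cells, secretory glands, blood vessels and immune cells, and lies against the vomer bone and nasal cartilage.

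The labelled sex and tissue were checked before any comparison. Xist, the RNA that coats the inactive X chromosome, had 18 to 23.1 FPKM (fragment density over the transcript, scaled to the library's mapped fragments) in SF and at most 0.0793 in SM libraries, and the Y-linked Ddx3y was listed at 0 in the SF libraries and at 9.43 to 10.15 FPKM in SM. The VNO channel Trpc2 had 33.3 to 44.5 FPKM in the 6 libraries, Omp, a marker of mature olfactory and vomeronasal neurons, 80.6 to 114, Gnai2 41.8 to 49.5 and Gnao1 4.13 to 5.20. The fragments behind the values, estimated from the confidence limits of the deposited values, summed to between 4833986 and 5511224 in 5 of the libraries and to 3373400 in SF replicate 1. By the study's own alignment figures, SF replicate 1 had nearly as many aligned pairs as SM replicate 2, but the lowest share of concordant pairs of the VNO libraries. In SF replicate 1 the small noncoding RNA entry Mir6236 had 175970 FPKM, against 38059 to 120012 in the other 5. The mean deviation of all genes from the 12-library mean was -0.15 in log2 units in SF replicate 1 and between -0.05 and 0.03 in the other 5, and the part of Mir6236 in this was not tested. SF replicate 1 also had the lowest of the 12 weights that limma estimated for the VNO libraries (0.434).

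Differences are given as SF minus SM of log2(FPKM + 0.5), a scale that makes the changes of weakly expressed genes look smaller than they are, from limma's moderated test over the 12 VNO libraries. Of 13409 autosomal genes whose FPKM averaged 0.5 or more, 4 fell in SF relative to SM at a Benjamini-Hochberg adjusted p under 0.05 (0.0298% of the genes tested) and 0 rose. At an unadjusted p under 0.05, 1066 genes were lower in SF (7.95%) and 112 were higher (0.835%), and the median difference of all genes was -0.08. This imbalance depended on the scaling. After each library was divided by its upper quartile, the median was 0.00, and 424 genes were lower (3.16%) and 379 higher (2.83%), and quantile normalization gave 433 and 370. Without SF replicate 1, 550 genes were lower (4.10%) and 241 higher (1.80%). Without SF replicate 2 or SF replicate 3, 7.61% and 11.7% were lower and 0.799% and 0.865% higher, and without SM replicate 1, SM replicate 2 or SM replicate 3, 5.58%, 5.53% and 7.75% were lower and 1.18%, 0.746% and 0.709% higher. Counts of list members without a library are to be read against these shares. A list is therefore described below by how many of its tested members had an unadjusted p under 0.05 in each direction, by its median, and by the same values for all genes. None of these members passed the adjusted threshold unless this is stated.

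The 50 gene lists of cell types and pathways were summarised in each library by the mean deviation of their members from the 12-library mean (the list level, in log2 units). The level was below every SM library in all 3 SF libraries for 13 lists, above every SM library for 1 list (osteoclast genes), and overlapped for 36. Between CF and CM the corresponding counts were 1 below and 3 above. Among lists with at least 10 tested members, those of neutrophil granules, gland secretion, neurons of the main olfactory epithelium and immediate early genes had the lowest medians, and those of cartilage, keratinised epithelium and osteoblasts the highest. Several shorter lists had low medians too, of which plasma and B cells had the lowest with all libraries in the fit. In bulk RNA, fewer cells of a type and less RNA per cell cannot be told apart. The lists and their members were chosen with earlier results of these data known. An excess of members over the share of all genes is therefore a description and no independent test.

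**Figure D1:**
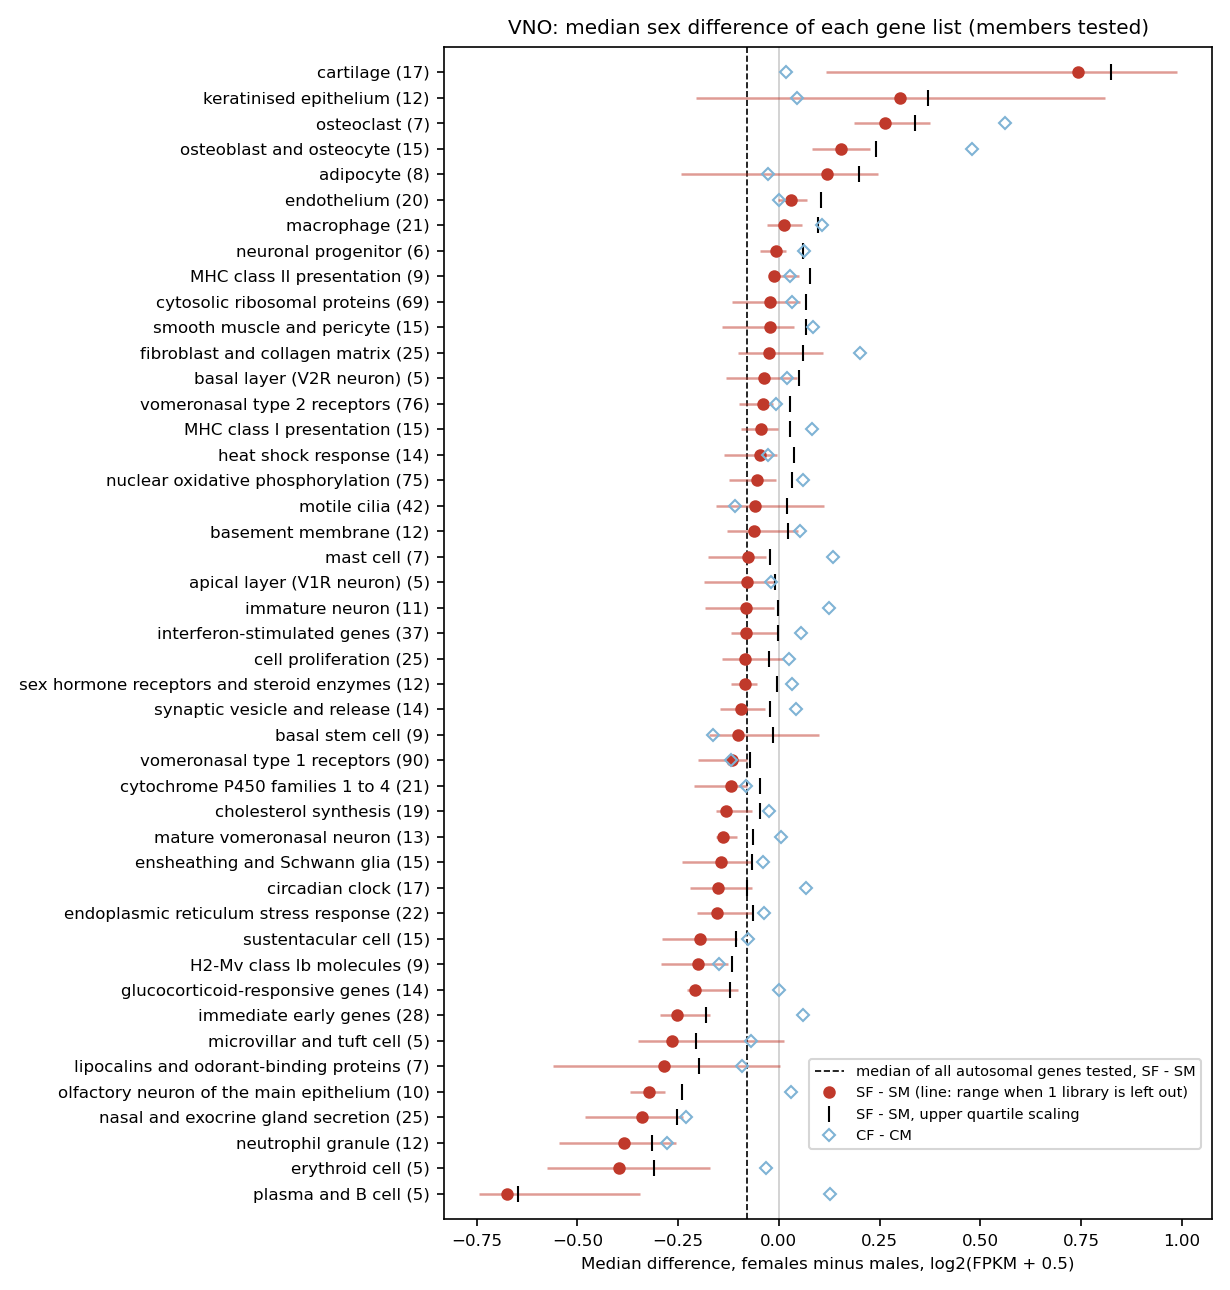
Median female-minus-male difference of the 45 gene lists with at least 5 tested members, on the log2(FPKM + 0.5) scale; red points are SF - SM with the range of medians when each of the 6 libraries is left out, black ticks the same after upper quartile scaling, and open diamonds CF - CM. The dashed line marks the median of all genes (-0.08). Of the 50 lists, the medians of 15 changed sign after upper quartile scaling, all of them close to 0, while the immediate early, main epithelium neuron, gland, plasma cell and neutrophil lists stayed below 0 and both bone lists above 0.

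The 4 genes that fell in SF were Sel1l3, Vmn1r89, Egr1 and Gad1. Sel1l3 (chromosome 5 from 53498322 to 53604691 in mm9), a gene of the SEL1 repeat family, had 8.36, 9.60 and 9.36 FPKM in the SF libraries and 15.2, 14.3 and 13.8 in the SM libraries. The difference was -0.64 (SE 0.0780, limma adjusted p = 0.0079), and the SM mean was 1.59 times the SF mean. Gad1 (chromosome 2 from 70400186 to 70440071), which encodes an enzyme of GABA synthesis, had 0.936, 0.799 and 0.550 FPKM in SF and 1.76, 1.85 and 1.70 in SM, with a difference of -0.86 (SE 0.126, limma adjusted p = 0.0296). Neither gene overlapped between the sexes, and neither did between CF and CM, where Sel1l3 was 0.50 lower and Gad1 0.46 lower in females on the same scale (limma adjusted p = 0.0648 and 0.775). Vmn1r89 and Egr1 are described with their lists below.

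With the replicate number as a block, 2 of the 4 genes kept an adjusted p under 0.05 in limma, Sel1l3 (0.024) and Gad1 (0.0282), while Egr1 (0.0686) and Vmn1r89 (0.0583) did not. After upper quartile scaling or quantile normalization Sel1l3 alone passed, and in a fit of only the 6 SF and SM libraries none of the 4 did. Without SM replicate 1, 0 autosomal genes passed, 1 gene did without SF replicate 3 or SM replicate 3, and 2 genes did without SM replicate 2.

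Immediate early genes are transcribed within minutes of neuronal activity, growth factors or stress, before any new protein is made, and in the VNO Egr1 and Fos are used as markers of neurons that responded to a social cue. Of the 28 list members tested, 11 were lower in SF at an unadjusted p under 0.05 (39.3%, against 7.95% of all genes) and 0 were higher, with a median of -0.25 (-0.08 over all genes). In 9 of the 28 every SF library lay below every SM library, against 13.0% of all genes, and in 0 every SF library lay above (against 1.47%). After upper quartile scaling 8 of 28 were lower at an unadjusted p under 0.05 (against 3.16% of all genes), with a median of -0.18. The count at that threshold was 9 without SF replicate 1 and between 8 and 11 without each of the 6 libraries, so that no library decided it. Between CF and CM, 0 members were lower and 1 was higher at an unadjusted p under 0.05 (1.51% and 2.33% of all genes), with a median of 0.06. In the interaction of sex and housing, 11 members had an unadjusted p under 0.05 with a lower female-minus-male difference in the sex-separated mice (4.80% of all genes), and 0 members passed after adjustment.

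The transcription factor gene Egr1 (chromosome 18 from 35020861 to 35024610) had 2.16, 1.36 and 1.44 FPKM in SF and 3.48, 3.79 and 3.29 in SM. The difference was -0.92 (SE 0.133, limma adjusted p = 0.0290), and the SM mean was 2.13 times the SF mean. The CF libraries (2.82, 2.57 and 2.97) and the CM libraries (2.17, 2.03 and 2.67) overlapped, and all of them lay below the SM libraries. The interaction was -1.16 (limma adjusted p = 0.726), so that a difference between the housings was not established for this gene.

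Zfp36, whose product destabilizes mRNAs with AU-rich elements, had 1.91, 2.46 and 2.15 FPKM in SF and 3.21, 3.57 and 3.63 in SM, a difference of -0.58 (SE 0.101, limma adjusted p = 0.0883). Btg2, an antiproliferative gene, had 9.21, 8.54 and 11 FPKM in SF and 13.6, 11.9 and 14.0 in SM, a difference of -0.44. In both genes every SF library lay below every SM library, and the CF and CM libraries were near the SM values. The nuclear receptor gene Nr4a1 had 2.17 to 3.46 FPKM in SF and 3.55 to 6.10 in SM, and Fos, which encodes a subunit of the transcription factor AP-1, had 2.01 to 3.20 and 3.86 to 4.65. Egr3, Ier3 and Dusp6, a phosphatase that acts on ERK kinases, were also lower in every SF library than in every SM library. The phosphatase gene Dusp1 and the AP-1 genes Jun and Junb overlapped between SF and SM, with differences of -0.41, -0.31 and -0.40. Ccn1, the member with the highest FPKM, ranged from 16.6 to 32.5 in SF and from 20.6 to 36.5 in SM.

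**Figure D2:**
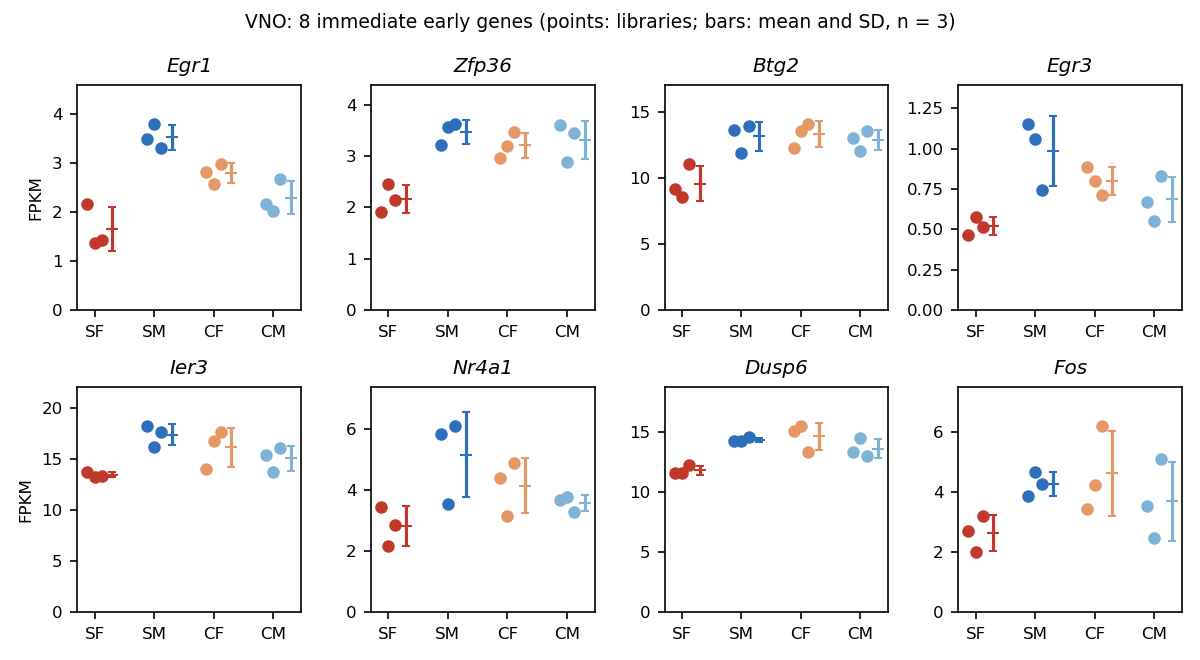
FPKM of 8 immediate early genes in the 12 VNO libraries, by group; points are libraries and bars the mean and SD (n = 3). In these 8 genes all 3 SF libraries lie below all 3 SM libraries, and the CF and CM libraries overlap.

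Promoters of such genes often carry the cAMP response element (CRE) or the CArG box, to which CREB and serum response factor bind. The promoter windows of 23 of the 28 members were found in the RefSeq table of GRCm38.p6 (250 bases before to 50 after a transcription start), 9 of them among the 11 lower members. Egr1 and Egr3 had no window there, so their promoters were not searched and the counts below do not cover them. A CRE spelled TGACGTCA, searched on both strands, was in a window of 3 of the 23 members (2 of the 9), against 2.03% of 27025 genes in the table (1.79% of their 32851 windows). A CArG box was in a window of 2 of the 23 (1 of the 9), against 1.81% of genes (1.63% of windows). The AP-1 site TGANTCA was in 0 of the 23, against 8.97% of genes, and the TATA box TATAAA in 5 of the 23 (2 of the 9), against 15.7%. The windows of the lower members that held either motif are shown because these are the letters that they share with the textbook activity-dependent promoters. Capitals mark the CRE in Btg2 (chr1:134079106-134079405, minus strand) and Dusp1 (chr17:26508423-26508722, minus strand) and the CArG box in Zfp36 (chr7:28379179-28379478, minus strand), each in GRCm38.p6 and written 5′ to 3′ on the strand of the gene.
Btg2: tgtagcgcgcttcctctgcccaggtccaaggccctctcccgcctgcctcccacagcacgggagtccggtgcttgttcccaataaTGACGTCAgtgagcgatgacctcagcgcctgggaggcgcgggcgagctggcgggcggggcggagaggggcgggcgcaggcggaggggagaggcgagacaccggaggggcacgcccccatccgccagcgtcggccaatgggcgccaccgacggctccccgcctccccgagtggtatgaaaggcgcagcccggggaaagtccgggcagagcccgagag
Dusp1: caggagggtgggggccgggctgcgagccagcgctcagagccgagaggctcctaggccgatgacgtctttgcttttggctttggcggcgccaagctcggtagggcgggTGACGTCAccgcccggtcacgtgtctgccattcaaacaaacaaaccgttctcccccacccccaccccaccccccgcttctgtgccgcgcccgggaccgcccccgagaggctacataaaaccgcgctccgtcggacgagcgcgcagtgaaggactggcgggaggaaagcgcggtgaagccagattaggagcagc
Zfp36: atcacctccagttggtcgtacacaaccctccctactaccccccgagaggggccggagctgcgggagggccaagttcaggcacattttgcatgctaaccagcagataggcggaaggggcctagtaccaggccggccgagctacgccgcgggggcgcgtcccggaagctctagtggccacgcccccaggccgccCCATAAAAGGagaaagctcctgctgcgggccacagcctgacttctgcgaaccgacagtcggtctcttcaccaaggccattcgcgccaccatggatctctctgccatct
The CRE starts at base 85 of the Btg2 window and base 108 of the Dusp1 window, and the CArG box at base 193 of the Zfp36 window. The windows of Fos, Jun, Junb, Nr4a1, Ier3 and Dusp6 held neither motif in these letters, which says nothing of sites outside the window or with other spellings.

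Genes of the main olfactory epithelium (MOE), the neighbouring tissue that detects odors with canonical olfactory receptors, were the next group with low values in SF. Of 10 genes of main epithelium neurons tested, 6 were lower in SF at an unadjusted p under 0.05 (60.0%, against 7.95% of all genes) and 0 were higher, with a median of -0.32 and -0.24 after upper quartile scaling, where 4 members remained under 0.05 (against 3.16% of all genes). The count ranged from 4 without SF replicate 1, SF replicate 2 or SM replicate 1 to 6. Gnal, the G protein subunit of odor transduction, had 1.42, 0.804 and 1.11 FPKM in SF and 2.45, 2.32 and 2.28 in SM (difference -0.84, limma adjusted p = 0.388). Stoml3, a protein of olfactory cilia, had 4.54, 2.11 and 3.62 in SF and 10.14, 6.27 and 6.60 in SM. Ric8b, the chaperone of Gnal, and Adcy3, the odor-dependent adenylyl cyclase, had differences of -0.42 and -0.40, also without overlap. Cnga2, the X-linked channel subunit of the same pathway, had 0.880 to 1.33 FPKM in SF and 2.80 to 3.72 in SM, and Olfr124, the highest of the 3 olfactory receptor genes tested, 5.78 to 7.35 and 10.62 to 17.2. Umodl1, the neuron list member with the highest FPKM, overlapped, with 17.6 to 21.7 in SF and 18.2 to 22.3 in SM (difference -0.10). Cngb1 and Kcnk10 overlapped too, with differences of -0.16 and 0.09.

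The levels of Cnga2, Gnal and Stoml3 are a small part of those in the MOE libraries of the same groups, which were normalized on their own. Olfr124 was not compared with MOE. Cnga2 had 172 to 259 FPKM in the 6 MOE libraries of SF and SM, Gnal 57.2 to 101 and Stoml3 172 to 319. In the sex-combined VNO libraries the list varied within each sex. CF replicate 1 and CM replicate 2 had list levels of 0.35 and 0.26, and CF replicate 3 and CM replicate 1 had -0.23 and -0.13, while the 3 SF libraries had -0.38 to -0.16 and the 3 SM libraries 0.10 to 0.22. The median between CF and CM was 0.03.

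Lists of supporting and secretory cells also had medians below that of all genes. In the sustentacular list 5 of 15 members were lower in SF at an unadjusted p under 0.05 (33.3%, against 7.95% of all genes) and 0 were higher (median -0.20, and -0.11 after upper quartile scaling). Without SM replicate 1 the count was 3 (against 5.58% of all genes) and the median -0.10 (-0.07 over all genes). Ugt2a1, an enzyme that conjugates odorants, had 29.1, 29.7 and 36.5 FPKM in SF and 62.3, 71.8 and 49.6 in SM. Cyp2g1, an olfactory cytochrome P450, had 3.17 to 5.11 and 7.2 to 11.2, and the transcription factor gene Sox2 22.1 to 24.3 and 27.3 to 35.9. In the MOE libraries Ugt2a1 had 1119 to 1622 FPKM and Cyp2g1 429 to 614.

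Among the 25 genes of nasal and exocrine gland secretion, 8 were lower at an unadjusted p under 0.05 (32.0%, against 7.95% of all genes) and 1 was higher (against 0.835%), with a median of -0.34 (-0.25 after upper quartile scaling). Bpifb3, of a family of secreted lipid-binding proteins, had 4.53, 1.55 and 2.22 FPKM in SF and 30.4, 22 and 10.09 in SM, a difference of -2.68 (SE 0.496, limma adjusted p = 0.133). The SM mean was 7.52 times the SF mean, and the MOE libraries had 507 to 1017. Scgb1c1, a secretoglobin of olfactory mucus, had 186, 102 and 195 FPKM in SF and 411, 472 and 377 in SM. Aqp5, the water channel of gland cells, had 30.2 to 31.5 and 34.9 to 42.8, and in contrast to the genes before it had no higher level in MOE (20.9 to 39.2). The higher member was Chil4, a chitinase-like protein, with 12.7, 37.7 and 3.50 FPKM in SF and 2.76, 4.64 and 0.654 in SM, groups that overlapped. Chil6, a chitinase-like gene outside the lists, had 3.15, 1.77 and 2.59 FPKM in SF and 8.56, 9.67 and 7.55 in SM (difference -1.62, limma adjusted p = 0.0594), and 325 to 482 in MOE. A separate list of lipocalins and odorant-binding proteins held the gland genes with the highest FPKM. All differences of its tested members were negative, and the smallest unadjusted p in limma was 0.319 (Obp2a). Between CF and CM the medians were -0.08 for the sustentacular and -0.23 for the gland secretion list. How much of the difference of the main epithelium neuron, sustentacular and gland secretion lists came from main epithelium in the dissected tissue was not tested.

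**Figure D3:**
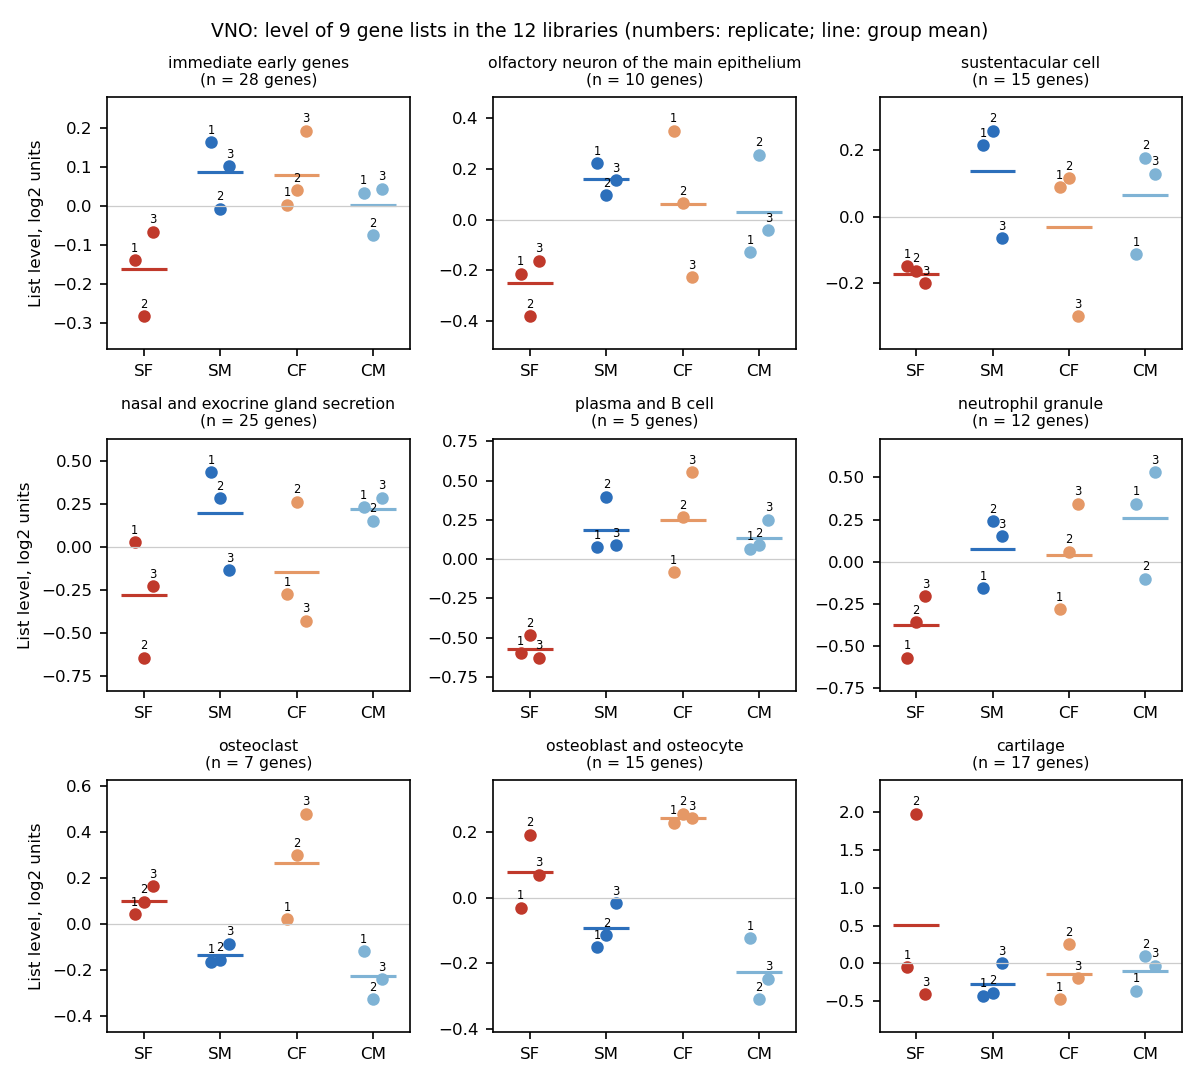
Level of 9 gene lists in the 12 VNO libraries, as the mean deviation of the members from the 12-library mean in log2 units; numbers mark the replicate and lines the group mean. The SF libraries lie below the SM libraries in the immediate early, main epithelium neuron, sustentacular, plasma cell and neutrophil lists and above them in the osteoclast list, the gland and osteoblast lists overlap, and the cartilage list is set apart in SF replicate 2 alone (1.98).

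The list of antibody-secreting plasma cells and B cells had a median of -0.68 (-0.65 after upper quartile scaling), with 2 of 5 members lower at an unadjusted p under 0.05 (against 7.95% of all genes) and 0 higher. Without SM replicate 2, the SM library with the most Jchain, the median was -0.34 and 2 members were lower. Jchain, the chain that joins secreted IgA and IgM, had 6.73, 4.54 and 2.88 FPKM in SF and 16.2, 38.5 and 19.5 in SM. The difference was -2.24 (SE 0.406, limma adjusted p = 0.116), the SM mean was 5.24 times the SF mean, and the CF (17.3 to 41.9) and CM libraries (14.8 to 32.8) overlapped those of SM. Cd79b, a subunit of the B cell receptor, had 0.409 to 0.576 FPKM in SF and 1.01 to 1.27 in SM, from as few as 4.67 fragments. Mzb1 overlapped, and Sdc1, which many epithelial cells also express, had a difference of 0.00. The interaction for Jchain was -2.58 (limma adjusted p = 0.895).

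Neutrophil granule genes were lower in 5 of 12 members (41.7%, against 7.95% of all genes) with 0 higher and a median of -0.39 (-0.31 after upper quartile scaling). The count, however, was 1 without SF replicate 1 (against 4.10% of all genes), 2 without SM replicate 2, 3 without SF replicate 2, SM replicate 1 or SM replicate 3, and 8 without SF replicate 3 (against 11.7%). Retnlg and Ngp, proteins of neutrophils, had 0.479 to 0.654 and 0.340 to 0.535 FPKM in SF and 1.24 to 1.99 and 0.760 to 1.96 in SM, from as few as 3 fragments. Camp, an antimicrobial peptide, was listed at 0 in SF replicate 1. The iron-binding protein Ltf, which gland cells also make and which is a member of the gland list too, had 1039 to 1267 FPKM in SF and 1458 to 1618 in SM, and had the highest FPKM of the list. S100a8, an abundant neutrophil gene, overlapped (15.8 to 31.3 and 24.5 to 30.2). The median between CF and CM was -0.28. Hemoglobin genes, which mark red blood cells, varied between libraries as well. The level of this list of 5 genes, whose copies can share reads, was -1.08, 0.29 and -1.30 in the SF libraries and -0.63, 0.31 and 0.34 in SM, with a median difference of -0.40 and 0 members under 0.05. The part of blood in the plasma cell and neutrophil values was not tested. Macrophage, T cell, interferon and antigen presentation lists had medians between -0.08 and 0.01 and at most 1 member under 0.05.

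Genes of bone cells were the group with higher values in SF. Osteoclasts resorb bone, osteoblasts deposit it and osteocytes are embedded in it. Of 7 osteoclast genes, 3 were higher at an unadjusted p under 0.05 (42.9%, against 0.835% of all genes) and 1 was lower (against 7.95%), with a median of 0.26 (0.34 after upper quartile scaling). This median moved beyond the spread between replicates in 4 of the alternative settings. Acp5, the tartrate-resistant acid phosphatase of osteoclasts, had 50.5, 53.7 and 51.6 FPKM in SF and 39.7, 36.2 and 38.1 in SM, a difference of 0.45 (SE 0.122, limma adjusted p = 0.369). Ctsk, the collagen-degrading protease cathepsin K, had 82.0, 95.7 and 91.2 in SF and 63.0, 74.6 and 77.2 in SM, and Dcstamp, needed for osteoclast fusion, 0.914 to 1.27 and 0.372 to 0.680. The lower member was Nfatc1, a transcription factor gene (2.01 to 2.68 and 2.73 to 3.33).

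Of 15 osteoblast and osteocyte genes, 5 were higher (33.3%, against 0.835% of all genes) and 0 lower, with a median of 0.15 (0.24 after upper quartile scaling, with 7 higher, against 2.83% of all genes). Without SF replicate 2 the count was 2 and the median 0.08, and without SM replicate 1 they were 5 and 0.09. Sost, the osteocyte inhibitor of bone formation, had 2.06, 2.53 and 2.83 FPKM in SF and 0.913, 0.953 and 1.72 in SM, a difference of 0.83 (SE 0.187, limma adjusted p = 0.252). Bglap2 and Bglap, which encode osteocalcin and whose near-identical transcripts can share reads, had 22.5 to 29.8 and 42.2 to 52.4 in SF and 14.6 to 20.6 and 24.2 to 39.8 in SM. Ibsp, the bone sialoprotein gene, had 61.0 to 71.9 and 55.8 to 59.0. The early transcription factors Runx2 and Sp7 had differences of -0.17 and -0.06, and Spp1, the member with the highest FPKM, had 197 to 246 in SF and 173 to 219 in SM.

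The medians of both bone lists were above 0 in the sex-combined mice too. Between CF and CM, 6 of the 7 osteoclast genes and 12 of the 15 osteoblast and osteocyte genes were higher at an unadjusted p under 0.05 (2.33% of all genes), 0 were lower, and the medians were 0.56 and 0.48. Single members differed in sign, with Nfatc1, Runx2 and Sp7 below 0 in SF against SM (-0.31, -0.17 and -0.06) and above 0 in CF against CM (0.17, 0.10 and 0.41). In the interaction, 4 of the 15 osteoblast and osteocyte genes and 1 of the 7 osteoclast genes had an unadjusted p under 0.05 with a lower difference in the sex-separated mice (4.80% of all genes), 0 had a higher one, and 0 passed after adjustment. Acp5 had 47.0 to 69.9 FPKM in CF and 33.6 to 38.8 in CM, and Sost 2.27 to 2.78 and 1.13 to 1.83. Bone genes were present in every VNO library, with Ibsp at 55.8 FPKM or more in the 6 SF and SM libraries against 13.0 to 21.6 in their MOE libraries. Whether the amount of bone in the dissected tissue differed between the sexes was not tested.

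**Figure D4:**
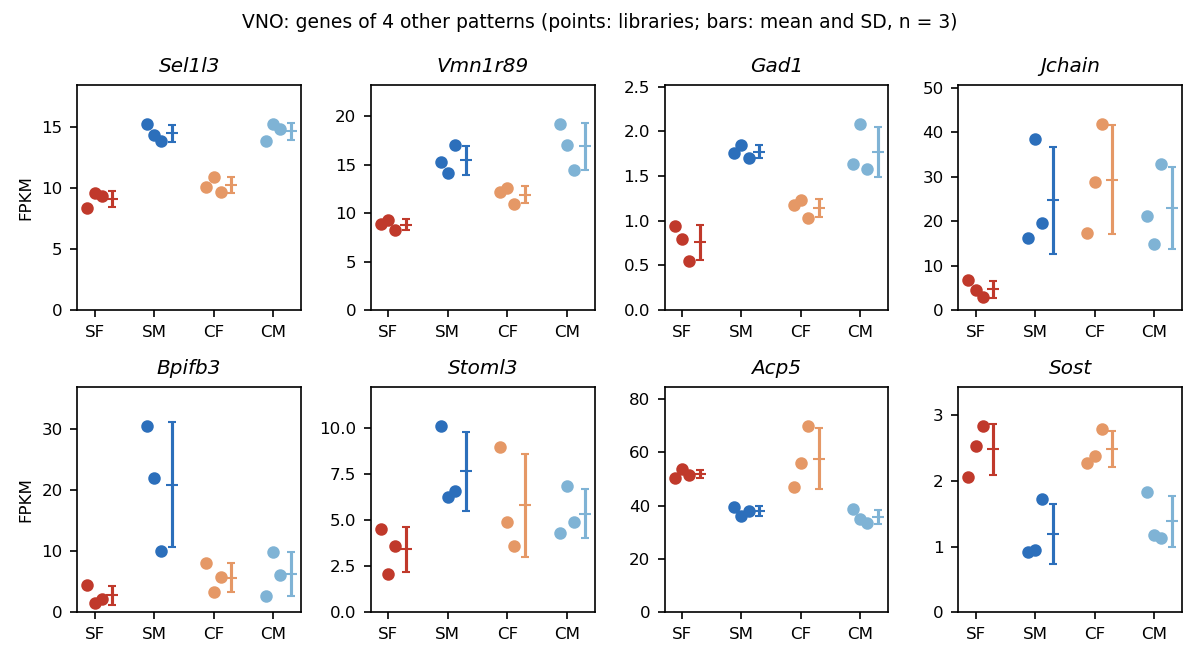
FPKM of 8 genes in the 12 VNO libraries, by group; points are libraries and bars the mean and SD (n = 3). Sel1l3, Vmn1r89 and Gad1 are lower in females under both housings, Jchain, Bpifb3 and Stoml3 are lower in SF than in SM and overlap between CF and CM, and Acp5 and Sost are higher in females under both housings.

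The cartilage list had the highest median of all (0.74, and 0.82 after upper quartile scaling), with 3 of 17 members higher at an unadjusted p under 0.05 (against 0.835% of all genes), but this was a property of SF replicate 2. Without that library the median was 0.12 and 0 members were higher, without SF replicate 1 or SF replicate 3 it was 8 and 11 members, and without SM replicate 1 or SM replicate 2 it was 0. Col2a1, the collagen of hyaline cartilage, had 13.9 FPKM in SF replicate 2 and 1.27 and 0.929 in the other SF libraries, against 0.448 to 0.737 in SM. Matn1, a cartilage matrix protein, had 9.69 in SF replicate 2 and at most 0.0898 in the other 5 libraries, where it rested on few fragments. The keratinised epithelium list varied between libraries in the same way, with a median of 0.30 that was -0.21 without SF replicate 2 and -0.05 without SM replicate 1. SF replicate 2 also had the lowest levels of the immediate early, main epithelium neuron and gland lists, and the median of each of these lists stayed below that of all genes without it (-0.17, -0.30 and -0.24, against -0.09).

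The sensory neurons of the VNO differed little as a group. Of 13 genes of mature vomeronasal neurons, 1 was lower at an unadjusted p under 0.05 (against 7.95% of all genes) and 0 were higher (median -0.14, and -0.06 after upper quartile scaling). This was Scn9a, a sodium channel gene, with 4.85 to 5.60 FPKM in SF and 5.75 to 5.90 in SM. The lists of the apical and the basal layer, 5 genes each, had 0 members under 0.05 and medians of -0.08 and -0.04, and the latter was 0.05 after upper quartile scaling. Calr4, a chaperone of the basal layer, had 34.8 to 39.8 FPKM in SF and 32.9 to 44.5 in SM. Progenitor, immature neuron, basal stem cell and proliferation lists had medians between -0.10 and -0.01 and at most 1 member under 0.05 in either direction.

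V1R genes, each of which is transcribed in a small subset of apical neurons, had 13 of 90 tested members lower (14.4%) and 1 higher (1.11%) at an unadjusted p under 0.05, against 7.95% and 0.835% of all genes. After upper quartile scaling 10 were lower and 1 was higher, against 3.16% and 2.83%. The median was -0.12, and -0.12 between CF and CM too. Without SM replicate 1, 8 were lower and the median was -0.08, and without SM replicate 2, 18 were lower and it was -0.20. Vmn1r89 (chromosome 7 from 13804688 to 13805638), the V1R gene with the highest FPKM, had 8.85, 9.35 and 8.25 in SF and 15.3, 14.1 and 17.1 in SM, a difference of -0.78 (SE 0.108, limma adjusted p = 0.0243). The CF libraries (11 to 12.6) also lay below the CM libraries (14.4 to 19.3), with a difference of -0.48. A total of 7 of the 13 lower V1R genes are on chromosome 7, where 27 of the 90 are. The 4 V1R genes tested in the 136 kb from Vmn1r85 to Vmn1r89 were all among the lower ones, which was noticed after the values were seen. They were Vmn1r85 (8.79 to 10.06 FPKM in SF and 10.12 to 13.8 in SM), Vmn1r86 (1.46 to 2.14 and 2.78 to 3.47), Vmn1r87 (0.311 to 0.464 and 0.489 to 1.05, from as few as 3 fragments) and Vmn1r89. These neighbours are similar in sequence, and reads that match more than 1 of them may have been assigned to any of them.

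Vmn1r31, on chromosome 6, was the V1R gene with higher values in SF, at 1.72, 1.23 and 0.918 FPKM against 0.488, 0.504 and 0.593 in SM (difference 0.77, limma adjusted p = 0.154), from as few as 6 fragments. V2R genes had 5 of 76 members lower (6.58%) and 3 higher (3.95%), against 7.95% and 0.835% of all genes, with a median of -0.04 that was 0.03 after upper quartile scaling. Of these, 3 were lower without SF replicate 2 or SM replicate 1, and 8 without SF replicate 3. Vmn2r93 (3.87 to 4.16 FPKM in SF and 2.90 to 3.17 in SM) and Vmn2r116 (2.06 to 2.85 and 1.52 to 1.74), the receptor of the male pheromone ESP1, were higher without overlap, and Vmn2r81 (0.941 to 1.34 and 1.62 to 1.92) was lower, as it was in CF against CM. Vmn2r89, the V2R gene with the highest FPKM, had 24.9 to 27.7 in SF and 24.9 to 29.8 in SM. The H2-Mv genes, class Ib histocompatibility molecules of basal neurons, had 3 of 9 members lower (against 7.95% of all genes, median -0.20), and 0 of 9 after upper quartile scaling (against 3.16%, median -0.12). Without SF replicate 2 or SM replicate 3 the count was 1, and without SM replicate 2 it was 5, and the median was -0.13 without SM replicate 1. It was the list whose level in every CF library lay below every CM library, with 3 of 9 members lower at an unadjusted p under 0.05 (1.51% of all genes) and a median of -0.15. H2-M10.6 had 3.20 to 4.47 FPKM in SF and 4.79 to 5.12 in SM.

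**Figure D5:**
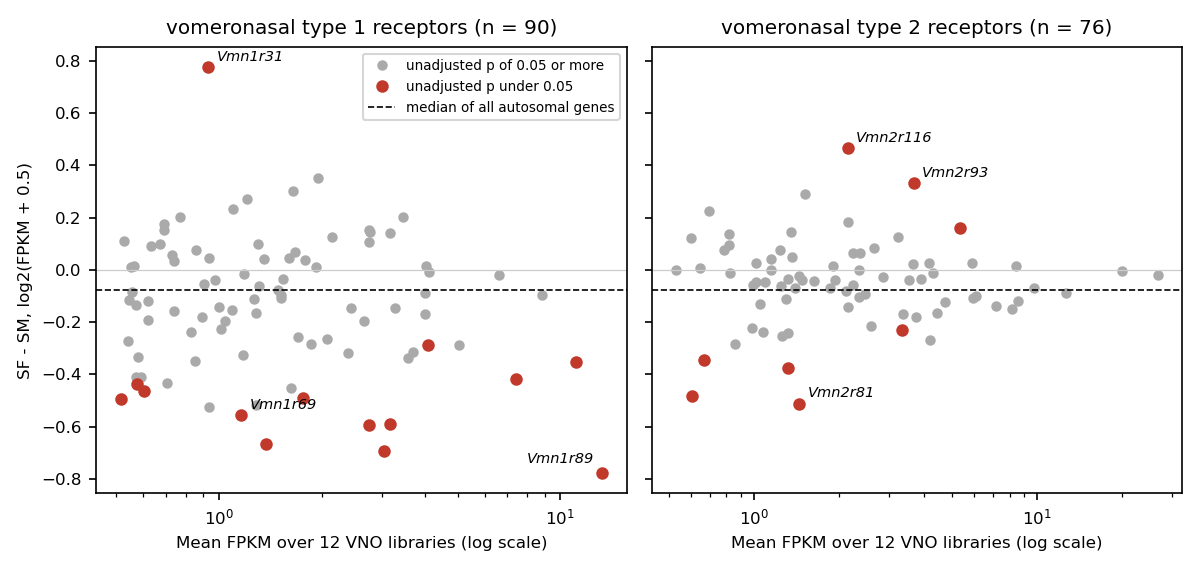
SF minus SM difference of the 90 V1R and 76 V2R genes tested, on the log2(FPKM + 0.5) scale, against the mean FPKM over the 12 VNO libraries (log axis); red points have an unadjusted p under 0.05 and the dashed line is the median of all genes. The red V1R points lie below the line except Vmn1r31, while red V2R points lie on either side. After upper quartile scaling, which moves all points up, 10 V1R genes stay lower.

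Among pathway lists, 3 of 14 glucocorticoid-responsive genes were lower (21.4%, against 7.95% of all genes) and 0 higher, with a median of -0.21 (-0.12 after upper quartile scaling, again with 3 lower, against 3.16% of all genes, and -0.10 without SF replicate 2). These were Errfi1, a feedback inhibitor of the EGF receptor (14.5 to 16.8 FPKM in SF and 19.5 to 21.1 in SM), and the metallothioneins Mt1 (45.1 to 58.4 and 70.8 to 72.7) and Mt2 (13.6 to 14.6 and 17.9 to 24.4), which bind metal ions and respond to other stresses too. Fkbp5, a classical target of the glucocorticoid receptor, overlapped between SF and SM (2.74 to 3.51 and 3.28 to 5.07). The endoplasmic reticulum stress list had 5 of 22 members lower (22.7%) and the cholesterol synthesis list 4 of 19 (21.1%), against 7.95% of all genes, but after upper quartile scaling 1 member of each was lower (against 3.16%), and the counts were 2 in the former without SF replicate 1 or SM replicate 1, and 1 in the latter without SF replicate 1, SF replicate 2 or SM replicate 1. Herpud1, of the degradation machinery of the reticulum, had 79.9 to 88.2 FPKM in SF and 97.8 to 132 in SM. Ribosomal protein, oxidative phosphorylation, heat shock, motile cilia, endothelium, smooth muscle and fibroblast lists had medians between -0.06 and 0.03 and at most 1 member lower and 1 higher, and all of these medians were above 0 after upper quartile scaling.

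The SF and SM values were also set against CF and CM gene by gene. Both comparisons share an estimate of spread for each gene, so that genes with little spread can pass more easily in both. Of the 112 genes higher in SF at an unadjusted p under 0.05, 34 were also higher in CF at that threshold (30.4%, against 2.33% of all genes). These 34 were 10.9% of the 312 genes higher in CF. Of the 1066 lower genes, 51 were also lower in CF (4.78%, against 1.51% of all genes). These 51 were 25.2% of the 202 genes lower in CF. Among the former were Acp5, Ctsk, Bglap, Bglap2, Sost, Agt, which encodes angiotensinogen, and Aldh1a2, an enzyme of retinoic acid synthesis with 3.24 to 3.87 FPKM in SF and 2.46 to 2.90 in SM. Among the latter were Sel1l3, Vmn1r89, Gad1, Aqp5, the chemokine gene Ccl25 (1.84 to 2.76 and 4.0 to 4.27) and B4galnt2, a glycosyltransferase gene (9.64 to 12.1 and 15.7 to 20.4). No member of the immediate early or main epithelium neuron list was lower in CF at that threshold. The interaction of sex and housing had an adjusted p under 0.05 in limma for 0 of the 13409 genes (710 at an unadjusted p under 0.05, 5.29%), so that no difference between the housings was established for any gene named here.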

How the data were processed

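Total RNA was pooled from several mice per library, depleted of ribosomal RNA and sequenced as stranded paired reads. Per the labels and the study's methods, the authors aligned reads to mm9 with TopHat2 2.1.0, and the deposited values are FPKM for each RefSeq entry with 95% confidence limits from Cufflinks 2.2.1.0. Options are not given in the sources used here. FPKM is relative to each library's total, so that RNAs taking a larger share of it lower all other values. The 40008 entries of a VNO library (99.73% matched to a symbol) were summed to 24632 genes, and 1 gene was left out because Cufflinks did not mark an entry OK.

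Genes whose FPKM averaged 0.5 or more in the 12 VNO libraries were tested on log2(FPKM + 0.5) with limma 3.58.1 in R 4.3.3 (4 groups, trend, Benjamini-Hochberg adjustment over 13849 genes), and the 13409 autosomal genes are reported. Counting was done in Python 3.11.15. Fragments behind a value were estimated from its confidence limits, and together with the 3-fragment floor they cover counting error only. The estimates summed to 3373400 to 6779893 fragments per VNO library. These sums are below the aligned read pairs that the study reports for each library, and are no measure of sequencing depth. Nothing in the labels says that libraries share mice, so p-values measure the spread between pools. SF and SM share replicate numbers, whose deviations from the group means correlated at 0.127, 0.162 and 0.202 across genes (-0.144 to -0.0296 for unlike numbers), and a fit with the number as a block was therefore added. Deviations cancel within a group, so that positive values for like numbers force negative ones on average for unlike numbers. The block covered CF and CM too, whose numbers were not examined. The pairing rests on these correlations of SF with SM, since the labels give no shared day or litter.

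Named genes were those with an adjusted p under 0.05, the 10 with the smallest p in each direction without overlap and above 0 in all 12 libraries, up to 3 such members of each list, the sex and tissue markers, and the member of each list with the highest FPKM. Other members are named to describe a list, and were chosen after their values were seen. The comparison, the lists and their members were chosen with earlier results of these data known. Alternatives were another pseudocount, filter, scaling or weighting, the estimated fragments as a covariate, the block, the 6 SF and SM libraries alone, and leaving out each library. The procedure was tested on simulated data with noise drawn for each gene on its own. Changed genes were drawn only from those above a set mean level, so that the call rates do not cover the most weakly expressed genes tested. Of 100 genes changed by 1 in log2 units 93 were called, of 100 changed by 2 it was 99, and 7 unchanged genes were called. No shift of a whole library was simulated, so that this says nothing of the imbalance between lower and higher genes. Promoter windows come from RefSeq on GRCm38.p6, and gene positions from the deposited mm9 loci.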

Additional observations from a re-analysis of the deposited data

Results flagged for a closer look

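In 2 genes, every SF library lay above every SM library while every CF library lay below every CM library. The V1R gene Vmn1r31 was higher in SF by 0.77 on the log2(FPKM + 0.5) scale (0.918 to 1.72 FPKM against 0.488 to 0.593 in SM) and had 0.720 to 0.972 FPKM in CF against 1.02 in each CM library. The predicted gene Gm29688 was higher in SF by 0.42 (5.36 to 6.19 FPKM against 3.88 to 4.80) and had 4.13 to 4.51 in CF against 4.87 to 5.15 in CM. The interaction of sex and housing was 0.91 for Vmn1r31 and 0.61 for Gm29688, each with an adjusted p of 0.895 in limma, so that neither difference between the housings passed the test. Both rest on few fragments, with as few as 6 for Vmn1r31 and 9.59 for Gm29688.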

How the results depend on the processing

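The number of autosomal genes that passed in SF against SM (4) was 1 after upper quartile scaling, 1 after quantile normalization, 6 with no filter, library weights or the fragment covariate, 2 with the replicate block, 2 with only the 6 libraries (Gm6619 and Snord23, neither of them among the 4) and 0 to 4 when each library was left out. Higher genes at an unadjusted p under 0.05 (112) numbered 379 after upper quartile scaling, 370 after quantile normalization, 256 with no filter, 69 with a filter of 2 FPKM, 204 with library weights, 170 with the fragment covariate and 95 to 241 without each library. Lower genes (1066) numbered 424, 433 and 550 to 1563 under the upper quartile, quantile and left-out settings, and both directions together 791 to 1679 without each library. Genes higher in SF without overlap (197) numbered 716, 710, 332 and 98 under the upper quartile, quantile, no-filter and 2 FPKM settings and 339 to 910 without each library. Those lower without overlap (1742) numbered 838 and 844 under the upper quartile and quantile settings and 2062 to 3819 without each library, and both directions together 2972 to 4158, since fewer libraries overlap less often. The CF and CM count (0) was 1 with no filter, 2 under quantile, upper quartile and fragment covariate settings, 3 with library weights and 0 to 2 without each library, and the interaction count (0) was 1 with no filter, 1 with the fragment covariate and 0 to 2 without each library. Other causes were not tested. The replicate block changed no adjusted call beyond those of Egr1 and Vmn1r89, while at an unadjusted p under 0.05 11 list members left and 27 joined the 110 counted without it (among them Scn9a and Rtp2, which left, and Cnga4, which joined). Over all pairs of a named gene and a setting, 0 values reversed, 30 lost an adjusted p under 0.05 (all in the 4 genes above) and 7 gained it (Chil6, Ccl25 and B4galnt2). The medians of lists stayed within the spread between replicates in 741 cases and moved beyond it in 57. A total of 30 of the 925 distinct members tested had 3 or fewer fragments in an SF or SM library, and their values are limited by depth.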
